A study of Mus musculus with 4 samples.

Results

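The elastic fibre and fibulin genes are 10 genes of dermal matrix: Fbn1, Fbn2, Mfap2, Mfap4, Mfap5, Eln, Fbln1, Fbln2, Fbln5 and Lox. They were chosen by name, and each was read from its probe set with the highest mean signal among probe sets whose platform annotation gives that gene alone. A probe set is the group of short probes on an array that reports a transcript. Of the 10 genes, 9 had such a probe set, among 18193 genes so named in the whole table. Fbn1 had 0 and was not analysed here. The study hybridised total RNA of dorsal dermis, parted from epidermis with the enzyme dispase, to 4 Affymetrix Mouse Genome 430 2.0 arrays. The mutant arrays, 2 in number, came from KRT14-Cre Ctnnb1(Ex3)fl/+ mouse embryos at E15.5, and the 2 control arrays from control littermates of that age, whose own alleles the labels do not give. KRT14-Cre drives Cre recombinase in basal surface epithelium, and removal of the floxed exon leaves the Wnt effector beta-catenin in a form that escapes degradation. The allele is therefore altered in epithelium, while the RNA came from the dermis beneath it.

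Elastic fibres let skin recoil. They hold a core of cross-linked elastin on a scaffold of microfibrils, which are built from fibrillins and decorated by microfibril-associated proteins. Fibulins are secreted glycoproteins that bind elastin, fibrillins and basement membranes, and lysyl oxidase joins elastin and collagen chains through their lysines. In mouse skin much of the elastic network is laid down late in gestation and after birth.

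The array labels and the authors' deposited list of changed probe sets do not go together, which bears on every value below. The authors' deposited table has 97 probe sets as higher in mutant, and 96 of these had mutant 2 and control 1 both above mutant 1 and control 2. All 56 given as lower had them below, and for 0 of the 153 did both mutant arrays lie on a common side of both control arrays. The genes are therefore described by label and also by the pairs mutant 2 with control 1 and mutant 1 with control 2. Those pairs were picked from these data, so values by pair are given as a description with no test. Mutant 2 and control 1 were both scanned after mutant 1 and control 2, each array on a fluidics module of its own, so scan order and pair cannot be told apart.

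The trimmed mean signal was 150.0 on each of the 4 arrays, and median signals lay between 28.6 and 32.3. Fibroblast collagens were high on all arrays, as for Col3a1 at 8886 and 6793 on the mutant arrays and 8353 and 7931 on the control arrays. The deposited instrument records name the sample type as epidermis. Some cell type markers moved with single arrays, others with the pairs and some with the labels. Summed signals of 9 cartilage markers were 286 on mutant 1 and 10832 on mutant 2, against 321 on control 1 and 314 on control 2. The 9 epidermal markers summed to 4362 on mutant 1 and to between 966 and 1057 on the other arrays. Single epidermal markers also went with the label. Krt14, Krt5, Trp63 and Perp, 4 of the 9, had both mutant arrays above both control arrays, and 0 had them below. Of the 11413 genes tested below, 8.97% lay above in that way. The mean was higher on the mutant arrays for 8 of the 9. The 10 skeletal muscle markers summed to 16317 on mutant 1 and 7691 on mutant 2, against 2926 on control 1 and 8813 on control 2. Of 8 endothelial markers, 5 had both mutant arrays below both control arrays and 0 had them above. Of the tested genes, 11.0% lay below in that way. Xist, expressed in female and not in male cells, read 11.4 on mutant 1 and at least 3108 on each of the other 3 arrays. The Y-linked genes Kdm5d, Eif2s3y and Uty read 224, 524 and 144 on mutant 1 and at most 5.81 on the others. By these genes mutant 1 held male cells and the other arrays female ones, so sex was not balanced over the labels. In such bulk samples fewer cells of a type and less RNA per cell cannot be told apart.

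By label, 0 of the 9 genes passed the test, in either direction. The test was a two-sided limma fit of log2(signal + 16), adjusted by Benjamini and Hochberg's method over 22519 probe sets of at least median mean signal and a threshold of 0.05, and all 9 genes had an adjusted p of 0.9999. Of all probe sets tested, 0 passed in limma (0% called), and 208 had an unadjusted p under 0.05 (0.924%). The groups did not overlap for 1 gene, Mfap4, where both mutant arrays lay above both control arrays, and 8.97% of 11413 tested genes were of that kind. Both mutant arrays lay below both control arrays for 0 genes of the 9, against 11.0% of tested genes. The median log2 difference of mutant minus control was 0.01 over the 9 genes and -0.00419 over all tested genes. Changes on the log2(signal + 16) scale are smaller than those of the signal itself, and much smaller for dim probe sets. For the dimmest probe set of Fbln2 the range over the arrays was 0.54 on that scale and 2.93 in log2 signal, while for the probe sets read for the 9 genes the scales were close, as for Mfap5 at 2.51 and 2.61.

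By pair, mutant 2 and control 1 lay on a common side of mutant 1 and control 2 for 6 of the 9 genes, or 66.7%, and 53.5% of tested genes were of that kind. They lay above for Fbln2 and Fbln5 (29.6% of tested genes) and below for Fbn2, Mfap2, Fbln1 and Lox (23.9% of tested genes). The median size of the pair difference was 0.32 on the log2 scale over the 9 genes and 0.16 over all tested genes. With the mean of all probe sets of a gene in place of the highest one, 3 of the 9 genes kept their pairs apart, namely Fbln1, Fbln2 and Lox. The share of all tested genes was not computed for that setting. Quantile normalization left 5 of the 9, all but Fbn2 of the 6, and 54.0% of tested genes had their pairs apart under it.

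**Figure D1:**
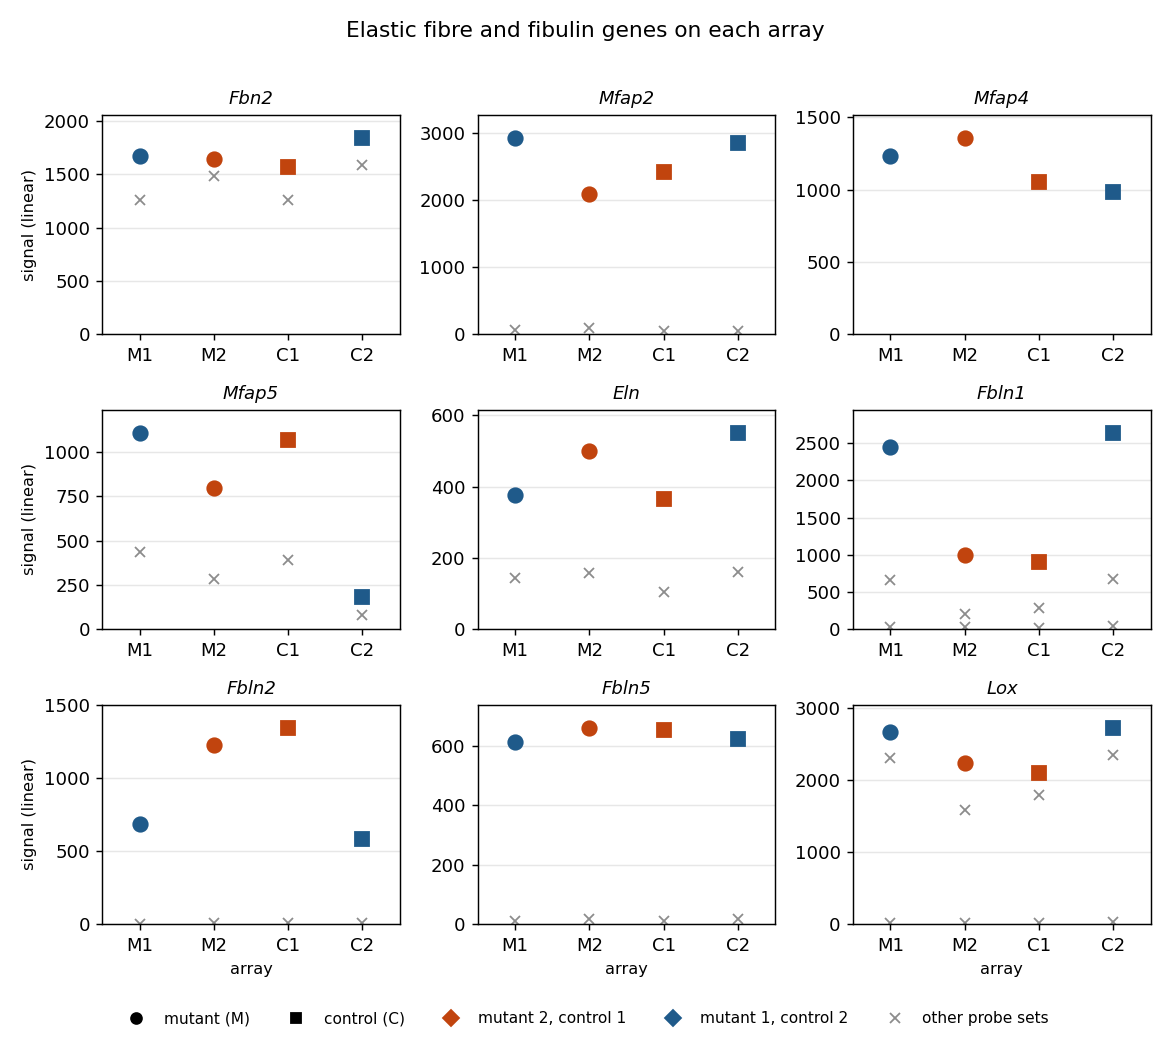
Signal (linear, from 0) of each gene on mutant 1 (M1), mutant 2 (M2), control 1 (C1) and control 2 (C2). Large points are the highest-mean probe set, with circles for mutant and squares for control and a colour for each array pair. Crosses are other probe sets. Fbln1 is at 991 and 905 on M2 and C1 and at 2454 and 2635 on M1 and C2, Fbln2 runs the other way, and Mfap5 is low on C2 alone.

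Fbln1 and Fbln2, which encode the secreted fibulins 1 and 2, had the largest pair differences of the 6 genes whose pairs did not overlap, in opposite directions. Promoter sequence matched 5 of the 10 genes. The 250 bases before the most upstream annotated start of Fbln1 are shown because it had the largest of these differences. For Fbln2 the start in the promoter table lies 304 bases after the start of the annotated gene, so no window is shown. The Fbln1 window is on the plus strand of GRCm38.p6, at chr15:85205699-85205948, and is credited to RefSeq. Capitals mark a match on either strand to an E-box (CACGTG).
Fbln1: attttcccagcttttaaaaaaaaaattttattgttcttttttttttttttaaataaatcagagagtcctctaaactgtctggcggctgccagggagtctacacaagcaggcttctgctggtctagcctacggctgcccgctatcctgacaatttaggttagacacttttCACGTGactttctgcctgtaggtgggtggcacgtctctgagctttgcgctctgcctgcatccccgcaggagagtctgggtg
The window holds 1 E-box, which begins 81 bases before the start, and 6.02% of 32851 windows of this length hold 1 or more. The GC box GGGCGG, on the other strand CCGCCC, occurs in 32.7% of windows. The TCF/LEF cores CTTTGAT and CTTTGAA, with their reverse complements ATCAAAG and TTCAAAG, occur in 3.21% and 4.46% of windows. None of these 3 motifs is in the Fbln1 window. A match is a description of letters and not a binding site.

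Fbln1, on chromosome 15 and known for its place in elastic fibres and basement membranes, gave signals of 2454 on mutant 1 and 991 on mutant 2, against 905 on control 1 and 2635 on control 2. Each label thus held a high and a low array, and the groups overlapped. The log2 difference of mutant minus control was 0.01 ± 0.65 (SE, n = 2 per group; limma adjusted p = 0.9999). It was -0.75 without control 1 and 0.78 without control 2, -0.63 without mutant 1 and 0.66 without mutant 2.

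By pair, mutant 2 and control 1 lay lower than mutant 1 and control 2 by a log2 difference of -1.41. Within the pairs, mutant 2 differed from control 1 by 0.13 and mutant 1 from control 2 by -0.10. Of tested genes, 97.7% had a smaller pair difference. A second probe set of Fbln1 gave 655 and 207 on mutant 1 and mutant 2, against 285 and 669 on control 1 and control 2, a pair difference of -1.39. The last probe set, below the median mean signal, gave 27.3 and 21.8 on the mutant arrays and 11.1 and 38.4 on the control arrays, with the same order of pairs. Fbln1 is the 1 gene of the 9 in the authors' deposited table, where its fold of mutant over control is 0.304. That table lists 153 of the array's 45101 probe sets, and 0 of the 54 other elastic fibre genes read below. The authors chose that table on these arrays, so it is not independent evidence, and its direction is that of the pairs and not of the labels.

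Fbln2, on chromosome 6, encodes a fibulin of basement membranes and developing mesenchyme. It gave 681 on mutant 1 and 1226 on mutant 2, against 1341 on control 1 and 583 on control 2. Again each label held a high and a low array. The log2 difference by label was 0.04 ± 0.47 (SE, n = 2 per group; limma adjusted p = 0.9999), and it ran from -0.54 without control 2 to 0.63 without control 1. By pair it was 1.01 higher on mutant 2 and control 1, and 95.4% of tested genes had a smaller pair difference. Its other probe set lay at 8.90 or below on all 4 arrays, too dim to be tested.

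Fbln5, on chromosome 12, encodes the fibulin that tethers elastin to microfibrils and to cell-surface integrins. Its signal was 612 on mutant 1 and 659.7 on mutant 2, against 654 on control 1 and 624 on control 2. The range over the arrays was 0.11 on the log2 scale, and 3.99% of tested genes had a smaller one. The pairs did not overlap, but the log2 difference between them was 0.09. By label it was -0.01 ± 0.12 (SE, n = 2 per group; limma adjusted p = 0.9999). The range was 1.53 for Fbln1 and 1.18 for Fbln2 on the same scale.

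**Figure D2:**
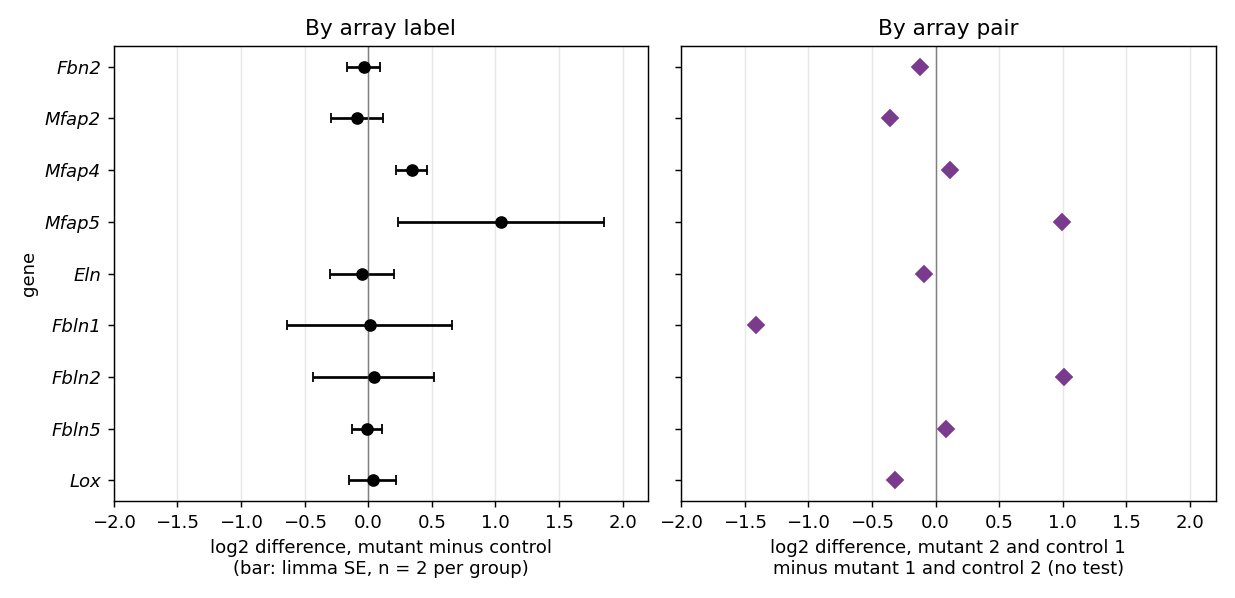
Log2 difference of each gene by array label (left, mutant minus control, bars are the limma SE with n = 2 per group) and by array pair (right, mutant 2 and control 1 minus mutant 1 and control 2, no test). By label Fbln1 and Fbln2 sit at 0.01 and 0.04, and by pair they sit at -1.41 and 1.01.

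Mfap5 had the widest range of the 9 genes, 2.51 on the log2 scale. It lies on chromosome 6 and encodes MAGP-2, a microfibril-associated glycoprotein. It gave 1107 on mutant 1 and 796 on mutant 2, against 1069 on control 1 and 182 on control 2. Control 2 alone was low, and the groups overlapped by label and by pair. The log2 difference by label was 1.04 ± 0.81 (SE, n = 2 per group; limma adjusted p = 0.9999). Without control 2 it was -0.18, and without control 1 it was 2.27. A second probe set had the same order, at 434 and 282 on the mutant arrays and 392 and 81.5 on the control arrays.

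The gene with the profile over 4 arrays most like that of Mfap5 was Ccn3, also on the list of fascia fibroblast markers, with a root mean square difference of 0.15 in centred log2 values among 11412 genes. Ccn3, which encodes a secreted CCN-family matrix protein, gave 1338 and 776 on the mutant arrays and 1181 and 237 on the control arrays. Efhd1 and Rab25 followed at 0.25 and 0.26. Of the 9 fascia fibroblast markers read, 6 were lowest on control 2, or 66.7%, against 28.4% of tested genes. Control 2 was lowest for 4 of 10 pericyte and smooth muscle, 3 of 9 cartilage and 2 of 8 endothelial markers. It was lowest for 0 of 10 skeletal muscle and 0 of 9 dermal fibroblast markers. It was also the lowest array for 4 of 9 epidermal markers (Krt14, Krt5, Trp63 and Perp), 7 of 9 leukocyte markers and 6 of 6 adipocyte markers. The adipocyte hormone gene Adipoq, for example, gave 57.6 and 1695 on the mutant arrays and 1301 and 3.55 on the control arrays. The summed signal of the fascia fibroblast markers was 6833 on mutant 1 and 5151 on mutant 2, against 6155 on control 1 and 3646 on control 2. The part of any of these cell types in the Mfap5 values was not tested.

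Mfap4 and Mfap2 are further microfibril-associated genes. Mfap4, on chromosome 11, encodes a fibrinogen-domain glycoprotein that binds microfibrils and elastin. It gave 1235 on mutant 1 and 1355 on mutant 2, against 1051 on control 1 and 987 on control 2. Both mutant arrays lay above both control arrays, by a log2 difference of 0.34 ± 0.12 (SE, n = 2 per group; limma unadjusted p = 0.0377 and adjusted p = 0.9999), so the call was not made. Without any 1 array the difference ran from 0.27 to 0.41. Only 1 probe set names Mfap4, so no second measurement was at hand.

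Mfap2, on chromosome 4, encodes MAGP-1, which binds fibrillins. It gave 2924 on mutant 1 and 2098 on mutant 2, against 2423 on control 1 and 2859.5 on control 2. Mutant 2 and control 1 were the lower pair, by -0.36 on the log2 scale, and the labels differed by -0.09 ± 0.20 (SE, n = 2 per group; limma adjusted p = 0.9999). Its second probe set did not part the pairs, with a pair difference of 0.21. It went the other way by label, at 66.2 and 96.6 on the mutant arrays and 46.5 and 48.2 on the control arrays. That difference by label was 0.60 ± 0.22 (SE, n = 2 per group, limma unadjusted p = 0.0441 and adjusted p = 0.9999). The probe sets of Mfap2 thus did not give a common direction.

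Fbn2, on chromosome 18, encodes fibrillin-2, the fibrillin that predominates in embryonic microfibrils. It gave 1666 on mutant 1 and 1644 on mutant 2, against 1567 on control 1 and 1836 on control 2. The groups overlapped by label, with a log2 difference of -0.04 ± 0.13 (SE, n = 2 per group; limma adjusted p = 0.9999). By pair they did not overlap, at -0.12, but a second probe set with 1259.6 and 1486 on the mutant arrays and 1262 and 1589 on the control arrays did not part the pairs. Both probe sets had their highest signal on control 2.

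Eln, on chromosome 5, encodes elastin itself. It gave 377 on mutant 1 and 498 on mutant 2, against 366 on control 1 and 549.6 on control 2. The arrays numbered 2 were the higher ones in each group, and neither the labels nor the pairs parted. The log2 difference by label was -0.05 ± 0.25 (SE, n = 2 per group; limma adjusted p = 0.9999), and its second probe set gave 0.19 ± 0.23 (SE, n = 2 per group; limma adjusted p = 0.9999). That probe set read 144 and 156 on the mutant arrays and 104 and 159.9 on the control arrays. Pericyte and smooth muscle markers, for cells that also make elastin, had summed signals between 5249 and 5528 on the 4 arrays, carried mostly by Acta2, Rgs5 and Pdgfrb. Single markers varied more: of 9 tested, 3 were higher and 3 lower on mutant 2 and control 1 (66.7% apart, against 53.5% of tested genes). Tagln, a smooth muscle actin-binding protein, gave 192 and 518 on the mutant arrays and 568 and 213 on the control arrays. Des, the muscle filament desmin, gave 382 and 164 on the mutant arrays and 70.6 and 191 on the control arrays.

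Lox, on chromosome 18, encodes lysyl oxidase, the copper enzyme that starts elastin cross-linking. It gave 2665 on mutant 1 and 2232 on mutant 2, against 2087 on control 1 and 2715 on control 2. By label the log2 difference was 0.03 ± 0.18 (SE, n = 2 per group; limma adjusted p = 0.9999), and by pair it was -0.32. The second probe set of Lox, at 2295 and 1583 on the mutant arrays and 1792 and 2338 on the control arrays, also parted the pairs. The remaining probe set, too dim to be tested, did so as well.

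The nearest profiles to that of Fbln1 were those of Ism1, Agtr1a and Hoxd3os1, with root mean square differences of 0.03, 0.04 and 0.05 over 4 arrays. Ism1, a secreted thrombospondin-repeat protein, gave 97.2 and 28.8 on the mutant arrays and 24.7 and 99.4 on the control arrays. Among 9 dermal fibroblast markers, 6 were lower on mutant 2 and control 1 and 1 was higher, against 23.9% and 29.6% of tested genes. Twist1, a transcription factor of mesenchyme, gave 891 and 313 on the mutant arrays and 338 and 1192 on the control arrays. All 6 adipocyte markers read were higher on mutant 2 and control 1, with summed signals of 4242 on mutant 1 and 15119 on mutant 2, against 15911 on control 1 and 2623 on control 2. Leukocyte markers were higher there for 6 of 9. Of the 10 skeletal muscle markers, 9 were lower there, with a median pair difference of -1.33 over the list beside -1.41 for Fbln1. By label, however, the median of the muscle list was 1.19 beside 0.01 for Fbln1. The dermal fibroblast list had medians of -0.34 by pair and -0.07 by label. Acta1, skeletal muscle actin, gave 3961 and 1816 on the mutant arrays and 912 and 2138 on the control arrays. The part of these cell types in the Fbln1 and Fbln2 values was not tested.

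**Figure D3:**
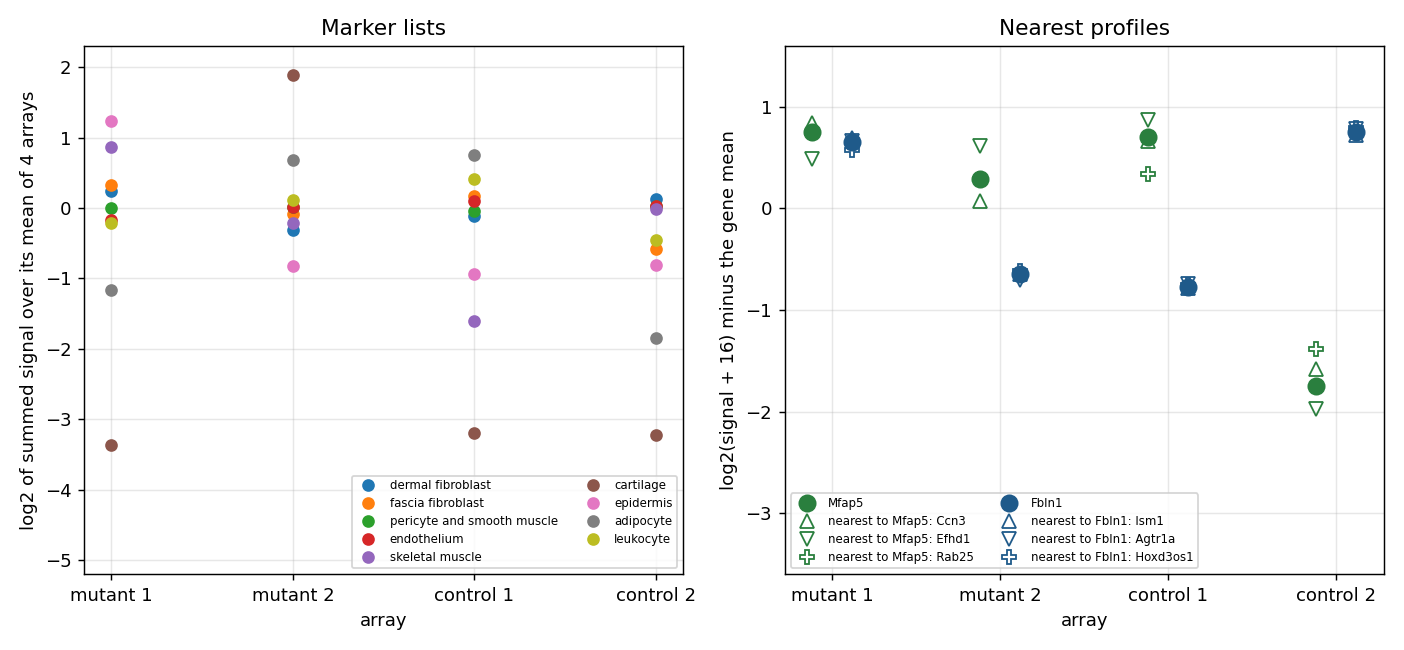
Left, summed signal of each marker list on each array as log2 over its own mean of the 4 arrays. Right, centred log2(signal + 16) of Mfap5 and Fbln1 (filled) and of the 3 genes with the nearest profile to each (open). Adipocyte markers are high on mutant 2 and control 1, the arrays on which Fbln1 is low, and Mfap5 and Ccn3 are low on control 2.

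Other genes linked to the elastic fibre were read from a list of 54, of which 50 had a probe set of their own and 46 were tested. The list takes in assembly genes, receptors and integrins, elastolytic enzymes and scaffold partners. By label 0 of the 46 passed in limma, and 0 had an unadjusted p under 0.05. Both mutant arrays lay above both control arrays for 3 of them (Loxl1, Loxl4 and Adamtsl4) and below for 2 (Atp7a and Mmrn2), or 10.9% in all, against 19.9% of tested genes. Mutant 2 and control 1 lay on a common side of the other pair for 33 of the 46, 20 above and 13 below, or 71.7% against 53.5% of tested genes.

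Of the other fibulins and hemicentins, 3 were tested, and 2 shared the pair order of Fbln1, as did 23.9% of tested genes. Efemp1, which encodes fibulin-3 and was picked after its values were seen, gave 1443 and 591 on the mutant arrays and 688 and 1247 on the control arrays. Hmcn1, a long fibulin-related matrix protein, gave 327 and 244 on the mutant arrays and 267 and 498 on the control arrays. Fbln7, a cell adhesion fibulin, was high on mutant 2 alone, at 28.2 on mutant 1 and 113 on mutant 2, against 29.6 on control 1 and 26.4 on control 2. Mutant 2 was also the array with cartilage signal, and the part of cartilage in the Fbln7 value was not tested.

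The latent TGF-beta binding proteins, which dock on fibrillin microfibrils, split by pair. Ltbp1 and Ltbp3 were higher on mutant 2 and control 1, and Ltbp2 and Ltbp4 were lower, against 29.6% and 23.9% of tested genes. Ltbp4, which helps fibulin-5 place elastin, gave 299 and 210.2 on the mutant arrays and 223 and 389.9 on the control arrays. Ltbp2 gave 95.9 and 82.8 on the mutant arrays and 43.8 and 117 on the control arrays.

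Among the lysyl oxidase-like enzymes, Loxl1, which acts on elastin, gave 1065 and 920.1 on the mutant arrays and 885 and 785 on the control arrays. The groups did not overlap, at a log2 difference of 0.24 ± 0.14 (SE, n = 2 per group; limma adjusted p = 0.9999). Loxl4 gave 70.3 and 67.2 on the mutant arrays and 28.0 and 57.0 on the control arrays. Loxl3 was higher on mutant 2 and control 1, at 103 and 283 on the mutant arrays and 175 and 79.6 on the control arrays. Atp7a, the copper transporter that loads lysyl oxidases, gave 581 and 567 on the mutant arrays and 616 and 647 on the control arrays.

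EMILINs and ADAMTS-like proteins are regulators that sit on microfibrils. Of 11 tested, 3 were higher and 5 lower on mutant 2 and control 1, against 29.6% and 23.9% of tested genes. Emilin3 gave 363 and 129 on the mutant arrays and 48.8 and 404 on the control arrays, a pair difference of -2.04. Adamtsl4, which binds fibrillin-1, gave 70.4 and 44.6 on the mutant arrays and 37.6 and 33.9 on the control arrays. Emilin3 thus had the pair order of Fbln1, while Adamtsl4 had its highest value on mutant 1.

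**Figure D4:**
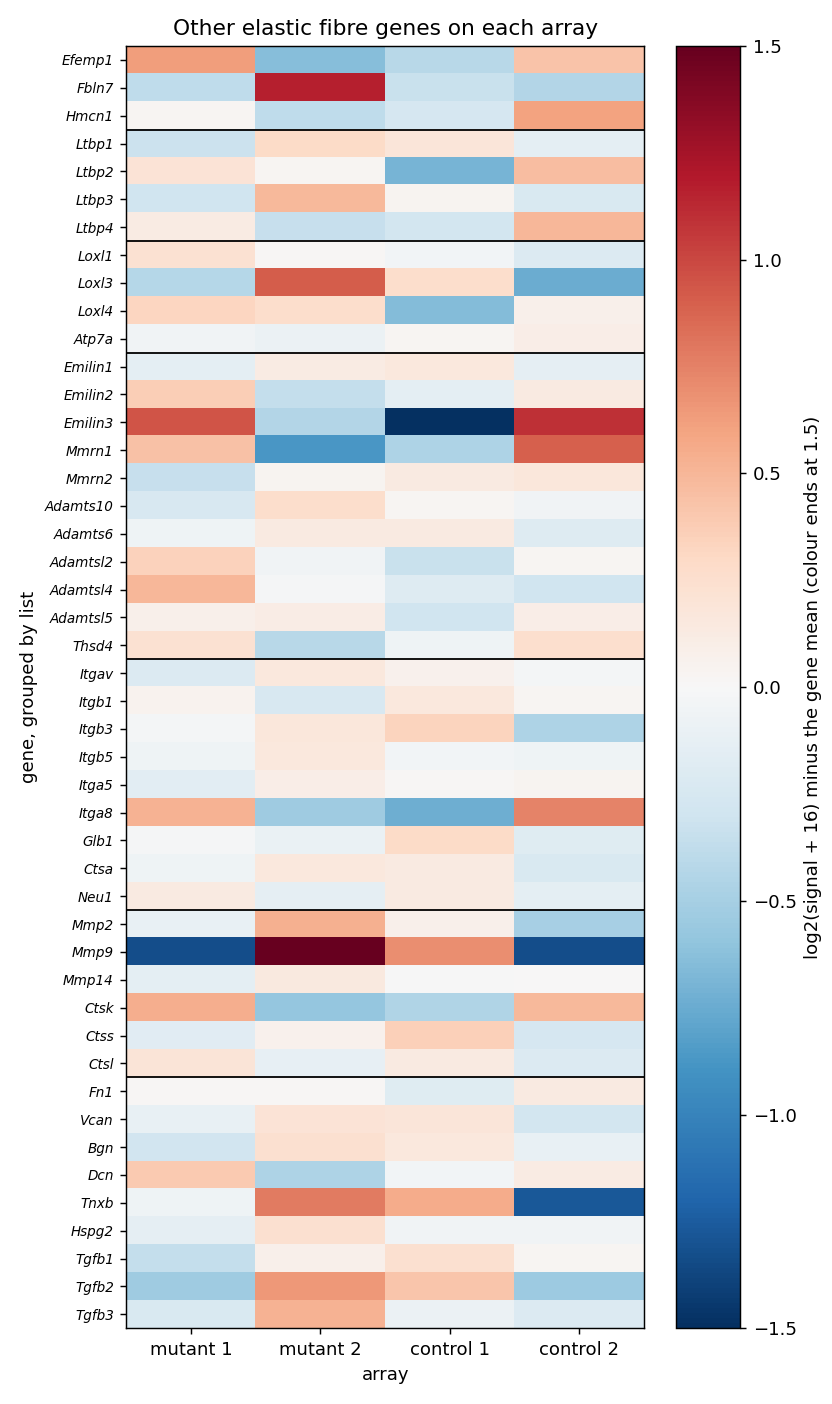
Centred log2(signal + 16) of the 46 tested other elastic fibre genes (rows, in list order with lines between lists) on the 4 arrays (columns). Red is above and blue below the mean of the gene. Columns mutant 2 and control 1 share a sign in many rows, such as Efemp1 and Emilin3 (below) and Tnxb (above), while 5 of the 46 rows have both mutant columns on a common side of both control columns.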

How the data were processed

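Signals of 4 arrays were analysed, 2 per label, from the table of values the authors deposited. The deposited intensity values are linear and scaled per array. Per the submitters' processing notes, the tools were GCOS and MAS5. Their versions, the background correction and any detection flags were not given in the sources used here. A list of changed probe sets that the authors deposited gives a fold of mutant over control. Per the file headers it rests on GCRMA values, presence on at least 2 of 4 arrays, an uncorrected Welch test with p under 0.01 and a 2-fold difference. Its columns per embryo were not used.

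Of 45101 probe sets, 64 array controls were left out. The annotation gave 1 gene for 34945, several for 932 and none for 9160. Gene numbers were matched to a GRCm38.p6 table, and 0 symbols changed. Symbols, chromosomes and the promoter window come from RefSeq tables of that assembly. No further normalization was applied. In R 4.3.3, limma 3.58.1 was run without a block, with trended variance moderation, and tested on simulated data. Alternatives were pseudocounts of 1 and 32, no filter, quantile normalization, no trend, the replicate number as a block, leaving out each array, and all probe sets. Tables were made with pandas 2.3.3 and numpy 2.4.6, and figures with matplotlib 3.10.9, in Python 3.11.15. Arrays carry no read depth, and their number limits the precision.

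The genes and lists were chosen with earlier results of these data known. Beside the 10 genes, the rule named the 2 tested genes of each elastic fibre list with the largest difference by label, from each marker list the gene with the highest mean and that with the largest range, and the 3 nearest profiles of the 2 widest members. Marker genes are mostly given as sums over their list, and other genes named were picked after their values were seen.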

Additional observations from a re-analysis of the deposited data

How the results depend on the processing

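Among the 9 genes, 0 passed by label under any setting run, with 1 at most at an unadjusted p under 0.05 in limma without a crossed block. Over the whole table, with all 4 arrays and no block, 0 probe sets passed in limma under any setting. The Welch test of the file header, with its p under 0.01 and 2-fold difference, gave 3, with 0 after adjustment. It was run here on log2(signal + 16) of the tested probe sets. The authors' list of 153 rests on GCRMA values and a presence filter, so the counts are not like for like. With the replicate number as a block, 0 probe sets and 0 of the 9 genes passed. Same-numbered arrays deviated from their group means in opposite ways (correlation -0.62 over 22519 probe sets), so a crossed replicate block of mutant 1 with control 2 was added after the data were seen, and it called 108 probe sets and 0 of the 9 genes. Without each array in turn, differences by label ran from -0.15 to 0.078 for Fbn2, -0.33 to 0.15 for Mfap2, 0.27 to 0.41 for Mfap4, -0.18 to 2.27 for Mfap5, -0.33 to 0.23 for Eln, -0.75 to 0.78 for Fbln1, -0.54 to 0.63 for Fbln2, -0.061 to 0.045 for Fbln5 and -0.15 to 0.22 for Lox. Those fits rest on 1 array against 2, and the lone array is assumed to vary like the others. Of 80 other alternative values, 7 turned. Many of the 80 could not turn, since no filter, no trend, either block and the Welch test leave a difference of group means unchanged. Both alternative pseudocounts kept all directions. Quantile normalization turned Fbln1 (-0.015) and Fbln5 (0.0078). The mean of all probe sets, which adds dim ones, was read for the 8 genes with over 1 probe set. It turned Mfap2 (0.26), Eln (0.072), Fbln1 (-0.048), Fbln2 (-0.070) and Lox (-0.071). The causes were not tested. Scan or fluidics blocks were not run, since all arrays were scanned on the same day and each module held 1 array.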

Other observations

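Receptors, proteases and scaffold partners of the elastic fibre were also read. Of 9 tested elastin receptor and integrin genes, 4 were higher and 1 lower on mutant 2 and control 1, so the pairs were apart for 5 of 9, a share near the 53.5% of all tested genes. Itgb3, the integrin beta 3 chain, gave 75.6 and 89.0 on the mutant arrays and 102 and 51.8 on the control arrays. Itgb1, the beta 1 chain, gave 1343 and 1094 on the mutant arrays and 1443 and 1324 on the control arrays. Of 9 elastolytic enzymes, 6 were tested, with 3 higher and 1 lower, against 29.6% and 23.9% of tested genes. Mmp9, a gelatinase, gave 6.86 and 207 on the mutant arrays and 77.2 and 6.78 on the control arrays, and Mmp2 gave 1039 and 1634 on the mutant arrays and 1185 and 788 on the control arrays.

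Of 9 scaffold partners of the fibre, 6 were higher and 2 lower on mutant 2 and control 1, against 29.6% and 23.9% of tested genes. Tnxb, which encodes tenascin X, gave 93.8 and 182 on the mutant arrays and 153 and 31.4 on the control arrays. Tgfb3, a ligand held by latent TGF-beta binding proteins, gave 142 and 251 on the mutant arrays and 158 and 145 on the control arrays. By label the groups overlapped for all 9 scaffold partners, while they were apart for 19.9% of tested genes, and 0 tested genes of these lists passed by label in limma, either at an adjusted or at an unadjusted p under 0.05.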
